A study of Mus musculus with 10 samples.

Results

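Predicted miRNAs without a registered name made up 130 of the 733 rows of a table of mature miRNAs counted in small extracellular vesicles of mouse heart. They were taken as every row whose identifier carries the prefix that the table gives to predicted miRNAs, a rule that uses the name alone and no measured value. The prefix is left out below, so that miR24-5p is a predicted row, while registered miRNAs are written as mmu-miR-24-1-5p. The other 603 rows carried registered mouse names and served for comparison. Small extracellular vesicles (sEVs) are membrane particles shed by cells, and those counted here came from collagenase-digested heart tissue, so they can stem from any cell type of the heart. The HFD plus L-NAME group had 5 libraries from male C57BL/6J mice given feed with 60% fat, with L-NAME at 0.5 g/L in their water. L-NAME blocks nitric oxide synthase, and the combination serves to model heart failure with preserved ejection fraction. Treatment started at 8 weeks of age and lasted 12 weeks. The control group had 5 libraries from male mice on chow, whose strain and age the labels do not give separately. Nothing in the labels ties each library to its own mouse, and the errors and p-values below measure the spread between libraries.

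A miRNA is a short RNA that guides the Argonaute proteins to complementary sites in messenger RNAs and lowers their translation or stability. It is cut from a hairpin precursor first by Drosha and then by Dicer, which leaves a duplex of a 5p strand and a 3p strand, named after the arm of the hairpin that each comes from. Usually 1 strand is retained and the other is degraded, so a precursor tends to show unequal arms in sequencing. Prediction tools look for this pattern in small RNA reads that match the genome outside known miRNAs, and they give each candidate a serial number. A predicted row is therefore a candidate, and fragments of other RNAs can resemble one. Targets and functions of the 130 rows were not looked up here.

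The number in a predicted row's identifier was read as a serial number, unrelated to the numbers of registered miRNAs, and this reading was not checked. Of the 17 predicted rows with enough counts for a test, 8 shared their number with a registered miRNA of the same table, and both had rows and counts of their own. The registered sequences below (RefSeq, GRCm38.p6, 5′ to 3′, with the seed at bases 2 to 8 in capitals) are shown because their names are the easiest to confuse with predicted rows. They belong to the registered miRNAs, and the sequences of the predicted rows were not used here, so the sequences of same-numbered rows were not compared.
mmu-miR-24-1-5p: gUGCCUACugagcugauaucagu
mmu-miR-24-2-5p: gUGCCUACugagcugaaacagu
mmu-miR-205-5p: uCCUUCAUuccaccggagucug
mmu-miR-142a-3p: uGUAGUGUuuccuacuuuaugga
mmu-miR-361-3p: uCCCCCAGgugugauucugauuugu
The 2 registered miR-24 5p strands share a seed and lie at chr13:63301213-63301235 and chr8:84208839-84208860, both on the plus strand. The predicted row miR24-5p had 1302 counts over the 10 libraries, against 52 and 600 counts for these registered strands. The predicted row miR205-5p had 171 counts, against 1 count for registered mmu-miR-205-5p (chr1:193507503-193507524, minus strand). The predicted row miR142-3p had 138 counts, against 46 counts for registered mmu-miR-142a-3p (chr11:87756903-87756925, plus strand), a miRNA of blood cells. In these pairs the predicted row had more counts than its registered namesake. The predicted row miR361-3p had 145 counts, against 5 counts for registered mmu-miR-361-3p (chrX:113074827-113074851, minus strand). The predicted row miR143-3p went the other way, with 938 counts against 131339 counts for registered mmu-miR-143-3p, whose sequence is not shown.

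The libraries held 250807 to 338530 miRNA counts in HFD plus L-NAME and 238434 to 420828 in control, and 0 counts in a library (limit of 3 counts) allowed for at most 7.13 to 12.6 CPM (a count scaled to the miRNA total of its library), by counting error alone. The tissue label was checked with miRNAs that mark cell types, and every listed marker had counts. Cardiomyocyte markers took 31.1% to 46.6% of counts in HFD plus L-NAME libraries and 26.1% to 33.8% in control libraries. Red blood cell markers took 0.914% to 2.84% in HFD plus L-NAME and 1.63% to 5.54% in control, and leukocyte markers 0.0345% to 0.0674% in HFD plus L-NAME and 0.0677% to 0.138% in control. Smooth muscle markers took 2.91% to 4.34% in HFD plus L-NAME and 4.37% to 7.02% in control, so that these and the leukocyte markers did not overlap between the groups. Endothelium markers took 3.98% to 7.15% in HFD plus L-NAME and 6.04% to 7.73% in control. Liver markers took 0.0322% to 0.0436% in HFD plus L-NAME and 0.0345% to 0.0701% in control. Neuron markers took at most 0.00561% in any library. The part of these cell types in the values below was not tested. In such bulk preparations, fewer vesicles of a kind and less RNA per vesicle cannot be told apart.

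Between 47 and 63 of the 130 predicted miRNAs were detected in a library, that is, had at least 1 count. The HFD plus L-NAME libraries 1 to 5 detected 47, 53, 63, 53 and 50 of them, a mean of 53.2 ± 6.02 (SD, n = 5). The control libraries 1 to 5 detected 63, 56, 57, 57 and 56, a mean of 57.8 ± 2.95 (SD, n = 5). The groups overlapped, and the highest number, 63, occurred once in each group. When every library was brought to the smallest library total, the expected numbers were 50.4 ± 5.22 in HFD plus L-NAME and 52.3 ± 2.83 in control. A minimum of 10 counts left 17.0 ± 1.87 rows per HFD plus L-NAME library and 18.6 ± 2.70 rows per control library. Detection was sparser than for registered miRNAs, since a library held 36.2% to 48.5% of the predicted rows and 52.2% to 61.9% of the named rows. The sets were not matched by count here. Rows with under 10 counts over the 10 libraries made up 66.9% of the predicted rows and 47.4% of the named rows.

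Predicted miRNAs took less than 1% of miRNA counts in every library. Their share was 0.342%, 0.470%, 0.336%, 0.689% and 0.377% in HFD plus L-NAME libraries 1 to 5, and 0.358%, 0.450%, 0.360%, 0.390% and 0.394% in control libraries 1 to 5. The highest share was that of HFD plus L-NAME 4, with 2334 predicted counts and an exact 95% binomial interval of 0.662% to 0.718%, which covers counting error only. The mean share was 0.443% ± 0.148 in HFD plus L-NAME and 0.390% ± 0.0371 in control (SD, n = 5 each). Without that library, the HFD plus L-NAME mean was 0.381% ± 0.0616 (n = 4). That library also had the largest miRNA total of its group, 338530 counts, and the largest miRNA share of its group's read totals, 1.55%, where the read totals are those implied by a second deposited value if it is RPM (counts scaled to reads). The part of these totals in its predicted share was not tested.

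**Figure D1:**
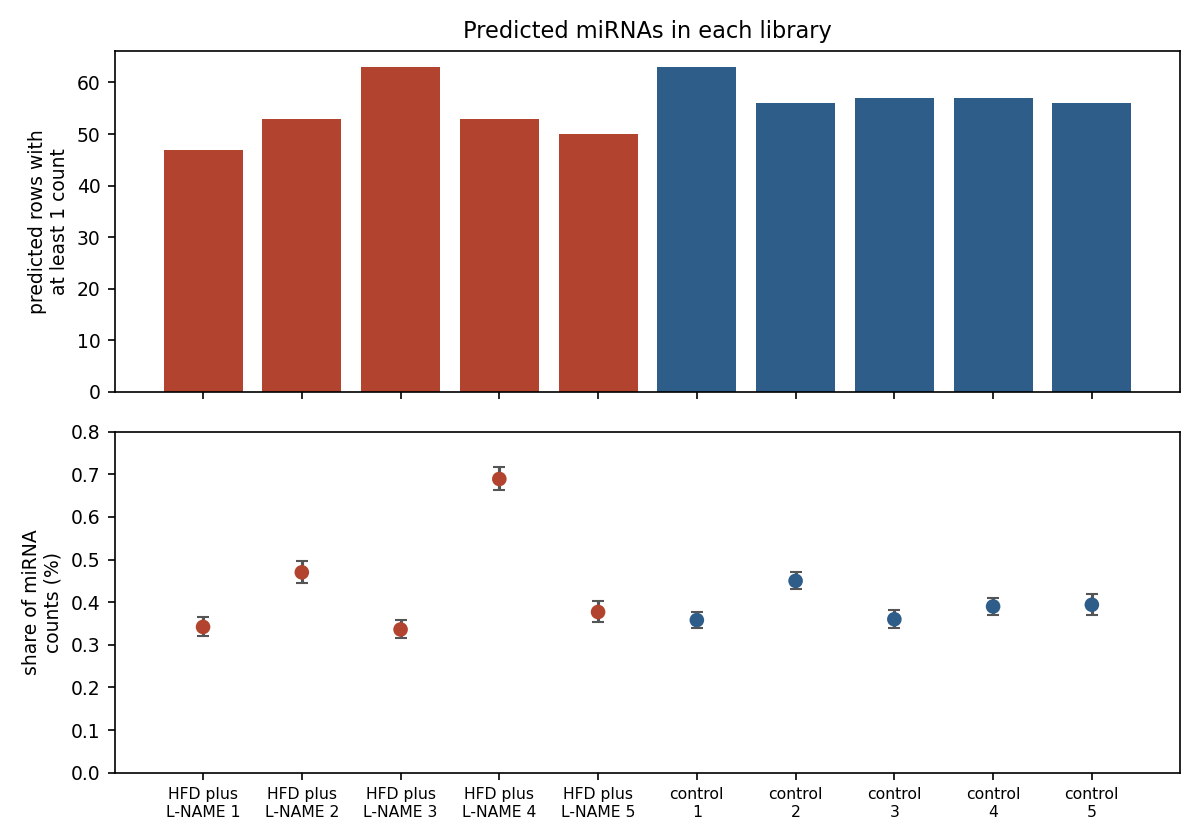
Number of predicted miRNAs with at least 1 count (top, bars from 0) and their share of all miRNA counts in percent (bottom, points with exact 95% binomial intervals) in each library, 5 HFD plus L-NAME at left and 5 control at right. The numbers detected run from 47 to 63 in HFD plus L-NAME and from 56 to 63 in control. HFD plus L-NAME 4 has the highest share at 0.689%.

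The counts of the predicted miRNAs lay in few rows. Over the 10 libraries, 36 rows had a single count in all and 87 rows had under 10, and those 87 rows held 1.66% of predicted counts. The first row alone, miR61-3p, held 17.2% of them, the 5 leading rows 62.3% and the 10 leading rows 81.3%. The 5 leading rows were miR61-3p with 2280 counts, miR389-3p with 2181, miR112-3p with 1540, miR24-5p with 1302 and miR365-5p with 941. Among the named rows the first held 28.9% of named counts and the first 5 held 50.7%. The named set is larger, so 5 rows are a smaller part of it. The 17 leading predicted rows, 13.1% of the predicted rows, held 90.3% of predicted counts. The 73 named rows with at least 1000 counts, 12.1% of the named rows, held 98.6% of named counts. At this share of rows the named counts were therefore the more concentrated. By summed count, 6 predicted rows were among the 100 largest of the 733 rows, from rank 55 for miR61-3p and rank 56 for miR389-3p to rank 82 for miR143-3p.

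Which row led differed between libraries. The row miR389-3p led in HFD plus L-NAME 1, 3 and 5 and in control 3, 4 and 5. The row miR61-3p led in HFD plus L-NAME 4 and in control 1 and 2, and miR112-3p led in HFD plus L-NAME 2. The 5 leading rows of the summed counts held 44.5% to 73.4% of predicted counts within HFD plus L-NAME libraries and 54.8% to 67.4% within control libraries.

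Recurrence across libraries split the predicted rows. A count in only 1 of the 10 libraries was found for 46 rows, 35.4% of the predicted rows, against 22.2% of the named rows. A count in all 10 libraries was found for 27 rows, 20.8% of the predicted rows, against 35.5% of the named rows, and those 27 rows held 95.5% of predicted counts. At like counts the 2 sets recurred about equally. Rows with 10 to 99 counts in all were found in a mean of 8.25 libraries if predicted and 8.33 if named. For rows with 1 to 9 counts the means were 1.92 and 2.16. Such low rows made up 66.9% of the predicted rows and 47.4% of the named rows. Rows counted in HFD plus L-NAME libraries alone numbered 27 and held 45 counts together, and rows counted in control libraries alone numbered 29 and held 41 counts. The highest of these were miR325-3p with 7 counts in HFD plus L-NAME libraries and miR469-5p with 4 counts in control libraries, both chosen after their values were seen. The 74 rows counted in both groups held 99.4% of predicted counts. The like numbers of named rows were not taken, so this split by group is not read as particular to predicted rows.

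**Figure D2:**
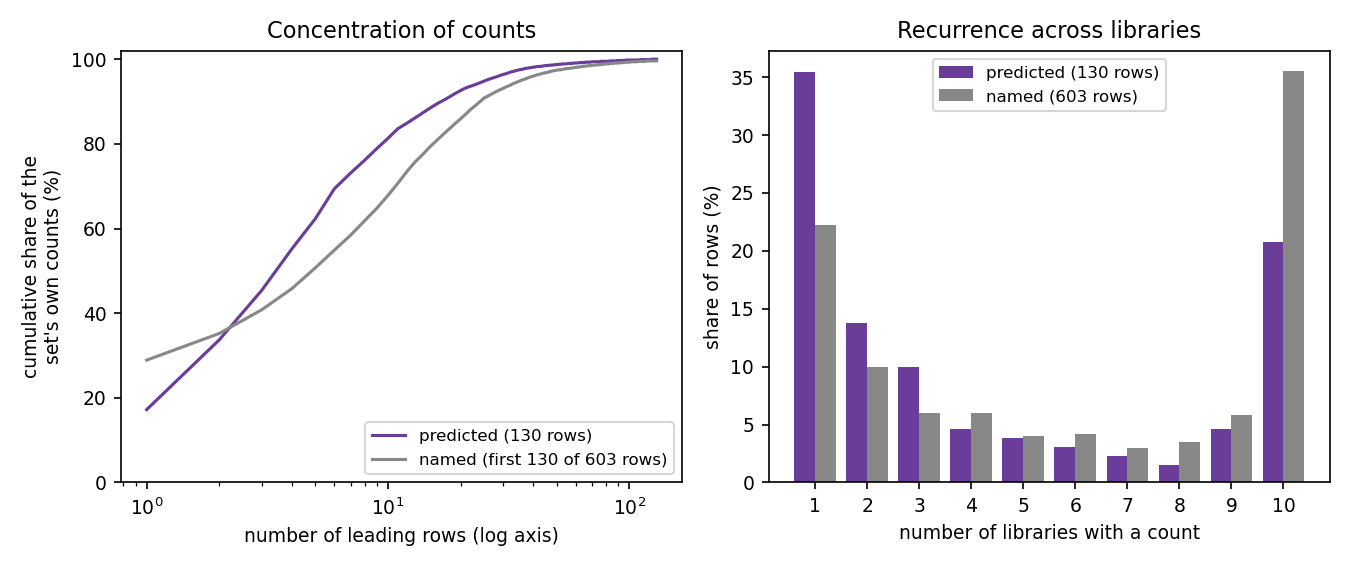
Left: cumulative share of each set's own counts in percent against the number of leading rows (log axis) for the 130 predicted rows and the first 130 of the 603 named rows. Right: share of rows in percent by the number of libraries with a count, where 35.4% of predicted and 22.2% of named rows have a count in 1 library, and 20.8% and 35.5% in all 10.

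The 24 predicted rows with 10 to 99 counts had a median of 25.6% of their counts in their highest library (17.0% to 60.0%), and the 17 tested rows 23.5% (13.3% to 29.6%). Among the 5 rows with the largest such shares, miR101-5p had 9 of its 15 counts in control 2 and miR496-5p had 6 of its 12 counts in control 1. The row miR424-5p had 8 of its 20 counts in HFD plus L-NAME 5, and miR242-3p had 10 of its 31 counts in HFD plus L-NAME 3. The 10 counts of miR125-5p included 4 in control 1 and 4 in control 2. These 5 rows carry too few counts for a comparison of groups.

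By the ending of their identifiers, 63 predicted rows were 5p strands and 67 were 3p strands. The 3p rows held 9139 counts, 69.1% of the predicted counts, and the 5p rows held 4092. The 5p share of predicted counts was 36.5%, 34.1%, 36.1%, 25.9% and 38.2% in HFD plus L-NAME libraries 1 to 5, and 28.0%, 36.3%, 21.6%, 29.0% and 28.3% in control libraries 1 to 5. The groups overlapped, with a mean of 34.1% ± 4.83 in HFD plus L-NAME and 28.6% ± 5.24 in control (SD, n = 5 each). The lowest value of the HFD plus L-NAME group was that of library 4, in which miR61-3p and miR112-3p were at their highest.

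The 130 rows came from 121 predicted precursors, of which 112 (92.6%) had a row for a single arm. Among named precursors, 237 of 400 (59.2%) had counts on a single arm. With at least 10 counts per precursor the numbers were 37 of 42 predicted (88.1%) and 96 of 244 named precursors (39.3%). Whether the weaker arm has any count depends on how many counts a precursor has, and these sets were not matched for that. A measure that allows a few counts on the weaker arm, at least 95% on a single arm, lay closer. With at least 10 counts it held for 41 of 42 predicted (97.6%) and 172 of 244 named precursors (70.5%). With at least 100 counts it held for 18 of 19 predicted (94.7%) and 114 of 140 named precursors (81.4%). At that cutoff, 14 predicted (73.7%) and 50 named precursors (35.7%) had counts on a single arm only. Named strands shared by several loci were kept as separate stems, which raises the named number, and an arm without a row may have been left out of the authors' list rather than measured at 0.

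Of the 9 predicted precursors with both arms listed, 5 had over 100 counts, and in each of them a single arm held most. The predicted precursor miR24 had 1302 counts on the 5p arm and 1 on the 3p arm, a 5p share of 99.9% (exact 95% binomial interval 99.6% to 100.0%). The precursor miR121 had 2 counts on the 5p arm and 400 on the 3p arm, a 5p share of 0.498% (0.0603% to 1.79%). The dominant strand thus lay on the 5p arm in the first and on the 3p arm in the second.

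The precursor miR156 had the most even use among them, with 30 counts on the 5p arm and 365 on the 3p arm, a 5p share of 7.59% (5.18% to 10.7%). Its 5p strand was counted in 9 of the 10 libraries, missing only from HFD plus L-NAME 4, where its 3p strand had 57 counts, the most of any library. The precursors miR78 and miR474 had 3 and 5 counts on the 5p arm against 105 and 100 on the 3p arm. The other 4 precursors, miR480, miR120, miR248 and miR44, had 2 to 8 counts each, too few for an arm preference to be read.

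**Figure D3:**
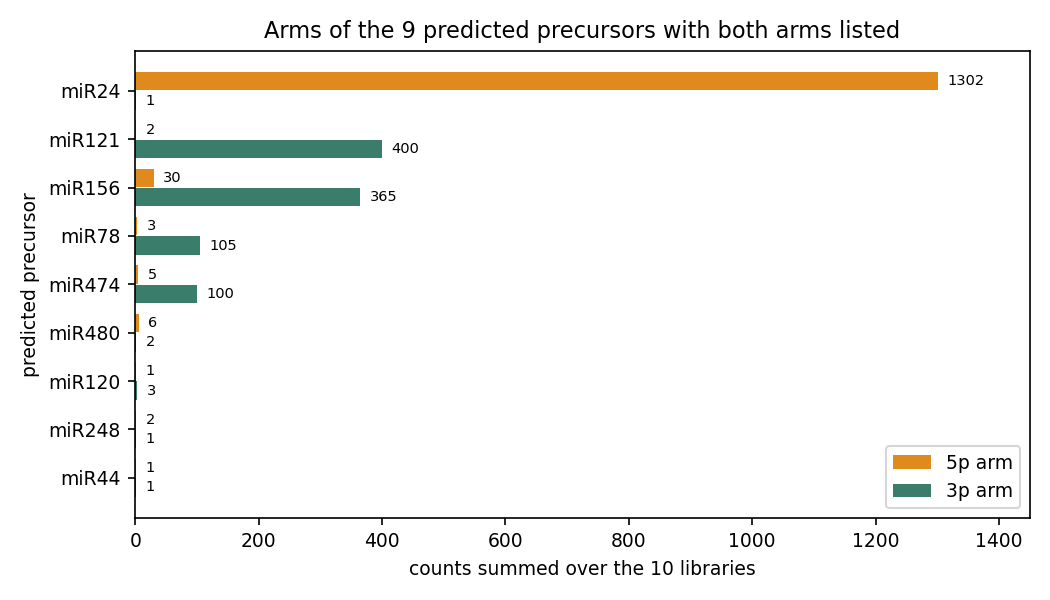
Counts of the 5p arm (orange) and the 3p arm (green), summed over the 10 libraries, for the 9 predicted precursors with both arms listed. The 5p arm leads in miR24, at 1302 against 1, and the 3p arm leads in miR121, miR156, miR78 and miR474.

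Libraries shared most, but not all, of their detected predicted miRNAs. Over the 45 pairs of libraries, the rows found in both, taken as a share of each library's own detected rows, were a median of 70.2%, with a range of 58.7% to 84.0%. For named rows the median was 81.1%. The median was 69.8% within HFD plus L-NAME, 72.3% within control and 69.7% across groups. The Spearman correlation of log2 CPM over the 130 rows had a median of 0.701 (0.622 to 0.781), against 0.832 over the 603 named rows. These correlations describe rows that share libraries and sequencing depth, and rows at 0 or 1 count make up much of them. Over the 17 rows with enough counts for a test the median was 0.782, with a wide range of 0.405 to 0.938 between pairs, against 0.934 over the 160 named rows that were tested. A correlation also depends on the number of rows and on how widely their levels range. The 17 rows had 107 to 2280 counts in all, while named mmu-miR-143-3p had 131339. The largest named row was higher still and held 28.9% of named counts. The part of this in the lower values was not tested.

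The spread of the predicted miRNAs between libraries of the same group was large. The biological coefficient of variation (BCV), edgeR's estimate of the relative spread between libraries beyond counting error, had a median of 0.503 over the 17 predicted rows and 0.341 over the 160 named rows. It ran from 0.323 for miR156-3p to 0.668 for miR205-5p among the predicted rows. Among the named rows it ran more widely, from 0.235 for mmu-miR-140-5p to 2.33 for mmu-miR-199b-3p. Among rows with 100 to 999 counts in all, the medians were 0.503 for 13 predicted rows and 0.361 for 87 named rows. Among rows with at least 1000 counts they were 0.431 for 4 predicted rows and 0.323 for 73 named rows, so the predicted rows had the higher median in both count classes. The upper class has no ceiling and is not matched by count. Its 4 predicted rows held 7303 counts together, and its 73 named rows held 3088359.

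The treatment comparison, HFD plus L-NAME against control, asked whether any predicted miRNA differed in level. The expression filter kept 177 rows, of which 17 were predicted (13.1% of the predicted rows) and 160 named (26.5% of the named rows), and those 17 held 90.3% of predicted counts. The filter asks for a minimum CPM in several libraries and is not a cut on summed counts. Among predicted rows, the smallest sum kept was 107 counts, for miR155-3p, and the largest left out was 105, for miR78-3p. By edgeR's quasi-likelihood test with Benjamini-Hochberg adjustment over all 177 rows, 0 of the 17 passed an adjusted p of 0.05, as did 0% of all tested rows. At an unadjusted p under 0.05 there were 2, against 15.8% of all tested rows. DESeq2 called 0 of the 17 at an adjusted p of 0.05, against 3 of all 177 rows (1.69%), and limma called 0 of the 17, against 0 of all. At an unadjusted p under 0.05 each had 2 of the 17, against 16.4% of all rows for DESeq2 and 14.7% for limma. The groups did not overlap for 0 of the 17, against 3.95% of all tested rows. Levels below are CPM over miRNA counts scaled by TMM, a normalization that assumes most rows do not change, and differences are log2 HFD plus L-NAME over control with the standard error.

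The row miR24-5p had 400, 679, 343, 682 and 551 CPM in HFD plus L-NAME libraries and 250, 482, 157, 318 and 362 CPM in control libraries. Most HFD plus L-NAME libraries lay above most control libraries, but the groups overlapped. The log2 difference was 0.76 ± 0.30, at an adjusted p of 0.209 (unadjusted p = 0.0230, edgeR). The row miR143-3p had 202, 472, 346, 621 and 320 CPM in HFD plus L-NAME libraries and 161, 441, 164, 136 and 118 CPM in control libraries. Control 2 was high among its group, at the level of the upper HFD plus L-NAME libraries. The log2 difference was 0.93 ± 0.39, at an adjusted p of 0.232 (unadjusted p = 0.0313, edgeR). Without control 2, the library seen to be high in this row, it was 1.41 ± 0.31 with an adjusted p of 0.0466 (edgeR). With any other library left out it was 0.74 to 1.03, at adjusted p of 0.240 to 0.461 (edgeR). With read totals as library size it was 0.54 ± 0.48 (adjusted p = 0.540, edgeR). Registered mmu-miR-143-3p, a miRNA of smooth muscle, is another row of the table.

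The row miR61-3p had 400, 846, 244, 1908 and 239 CPM in HFD plus L-NAME libraries and 816, 603, 893, 681 and 411 CPM in control libraries. The HFD plus L-NAME group held both its highest and its lowest libraries. The log2 difference was 0.10 ± 0.54 (adjusted p = 0.941, edgeR), and without HFD plus L-NAME 4 it was -0.60 ± 0.39 (adjusted p = 0.533). The row miR112-3p had 294, 862, 178, 1245 and 421 CPM in HFD plus L-NAME libraries and 292, 596, 325, 418 and 252 CPM in control libraries. Within the HFD plus L-NAME group, libraries 4 and 2 were the highest in both rows. Its log2 difference was 0.67 ± 0.45 (adjusted p = 0.502, edgeR) and 0.27 without HFD plus L-NAME 4.

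The row miR365-5p had 260, 476, 79.2, 679 and 199 CPM in HFD plus L-NAME libraries and 269, 307, 164, 343 and 163 CPM in control libraries. HFD plus L-NAME 4 was again the highest and HFD plus L-NAME 3 the lowest. The log2 difference was 0.44 ± 0.46 (adjusted p = 0.760, edgeR) and 0.06 without HFD plus L-NAME 4. The row miR389-3p had the lowest BCV of the 6 leading rows, 0.329, with 468, 638, 564, 697 and 669 CPM in HFD plus L-NAME libraries and 594, 523, 975, 803 and 1175 CPM in control libraries. Its 3 highest libraries were control libraries, and the other 2 control libraries lay within the range of HFD plus L-NAME. The log2 difference was -0.42 ± 0.24 (adjusted p = 0.398, edgeR).

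**Figure D4:**
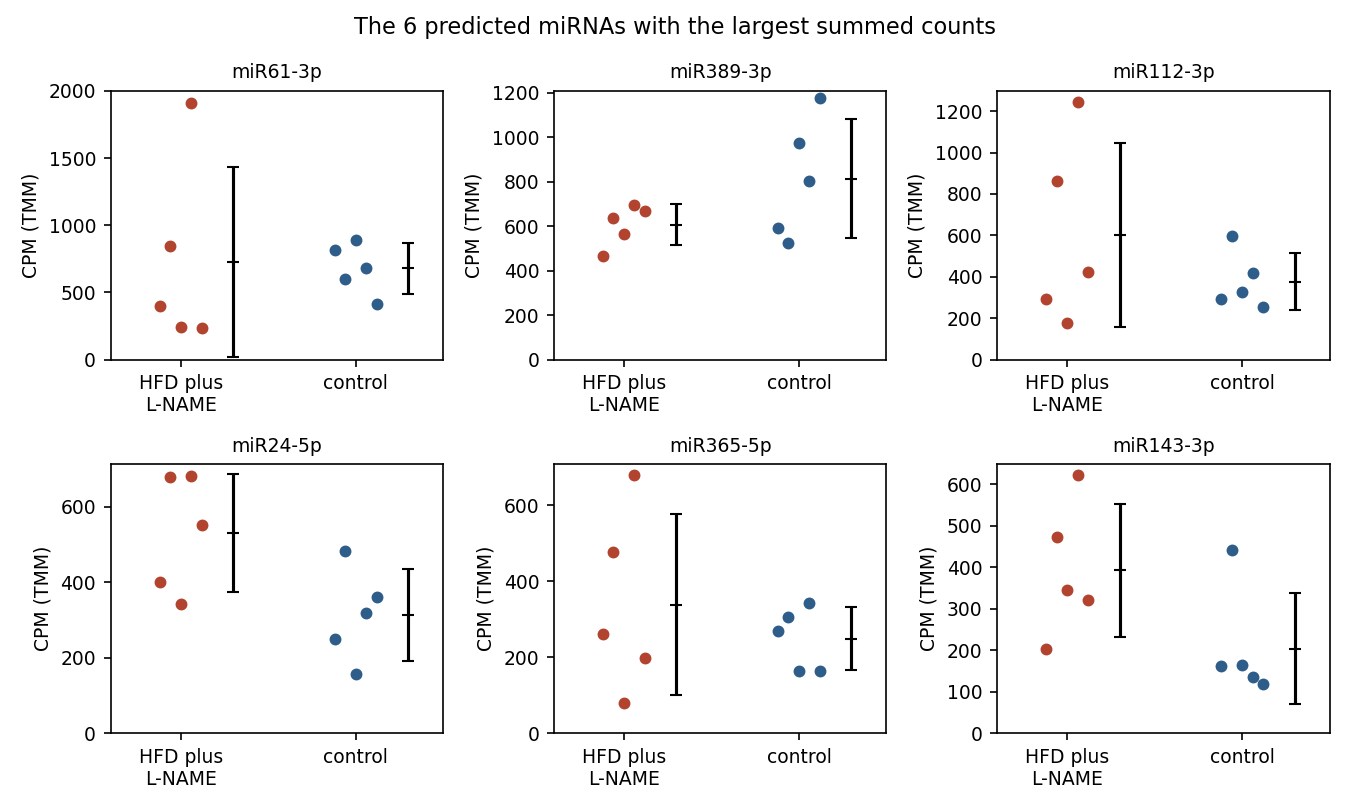
TMM-normalized CPM of the 6 predicted miRNAs with the largest summed counts in each library, 5 HFD plus L-NAME (left of each panel) and 5 control (right), with the mean and SD beside the points. The groups overlap in every panel, and HFD plus L-NAME 4 is the highest point for miR61-3p, at 1908 CPM, and for miR112-3p, at 1245 CPM.

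The other 11 tested rows averaged between 40.5 and 166 CPM in HFD plus L-NAME and between 30.6 and 150 CPM in control, and their log2 differences ran from -0.53 to 1.14. The largest belonged to miR205-5p, with 44.4, 61.0, 155, 15.2 and 130 CPM in HFD plus L-NAME libraries and 2.34, 36.3, 57.1, 41.5 and 48.8 CPM in control libraries. Its value in control 1 was a single count. The difference of 1.14 ± 0.65 had an adjusted p of 0.398 by edgeR. The row miR72-3p followed at 1.00 ± 0.59 (adjusted p = 0.408, edgeR), with 10.3 to 139 CPM in HFD plus L-NAME libraries and 9.35 to 79.9 CPM in control libraries. At the other end, miR428-3p had 36.5 to 122 CPM in HFD plus L-NAME libraries and 16.4 to 186 CPM in control libraries, a difference of -0.53 ± 0.50 (adjusted p = 0.740, edgeR).

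Differences near 0 were found for 4 rows. The row miR156-3p averaged 116 ± 40.1 CPM in HFD plus L-NAME and 118 ± 25.6 CPM in control, a log2 difference of -0.02 ± 0.30. The row miR142-3p averaged 42.9 ± 24.9 CPM in HFD plus L-NAME and 42.2 ± 19.3 CPM in control, a log2 difference of 0.03 ± 0.45. Those of miR361-3p and miR220-5p were 0.12 ± 0.56 and 0.14 ± 0.56, and single libraries moved them, to 0.71 for miR361-3p without control 1 and to 0.72 for miR220-5p without control 2. The remaining 4, miR121-3p, miR241-5p, miR433-5p and miR155-3p, had differences of 0.24 to 0.42 with standard errors of 0.32 to 0.57. Without control 2 the difference of miR241-5p was 1.17, in place of 0.35.

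The highest CPM of the 17 tested rows was spread over 7 libraries and the lowest over 7. HFD plus L-NAME 4 held the highest value most often, for 6 rows, namely miR61-3p, miR112-3p, miR24-5p, miR365-5p, miR143-3p and miR156-3p. Another 4 had it in control 2, namely miR142-3p, miR220-5p, miR241-5p and miR428-3p. The lowest CPM fell in HFD plus L-NAME 3 for 5 rows and in control 1 for 5 other rows. Red blood cell markers took 1.71% of counts in HFD plus L-NAME 4 and 5.18% in control 2. Cardiomyocyte markers took 35.6% in HFD plus L-NAME 4 and 33.8% in control 2, the highest of the control group. Endothelium markers took 5.41% in HFD plus L-NAME 4 and 6.04% in control 2, the lowest of the control group. The part of these markers in the values was not tested.

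**Figure D5:**
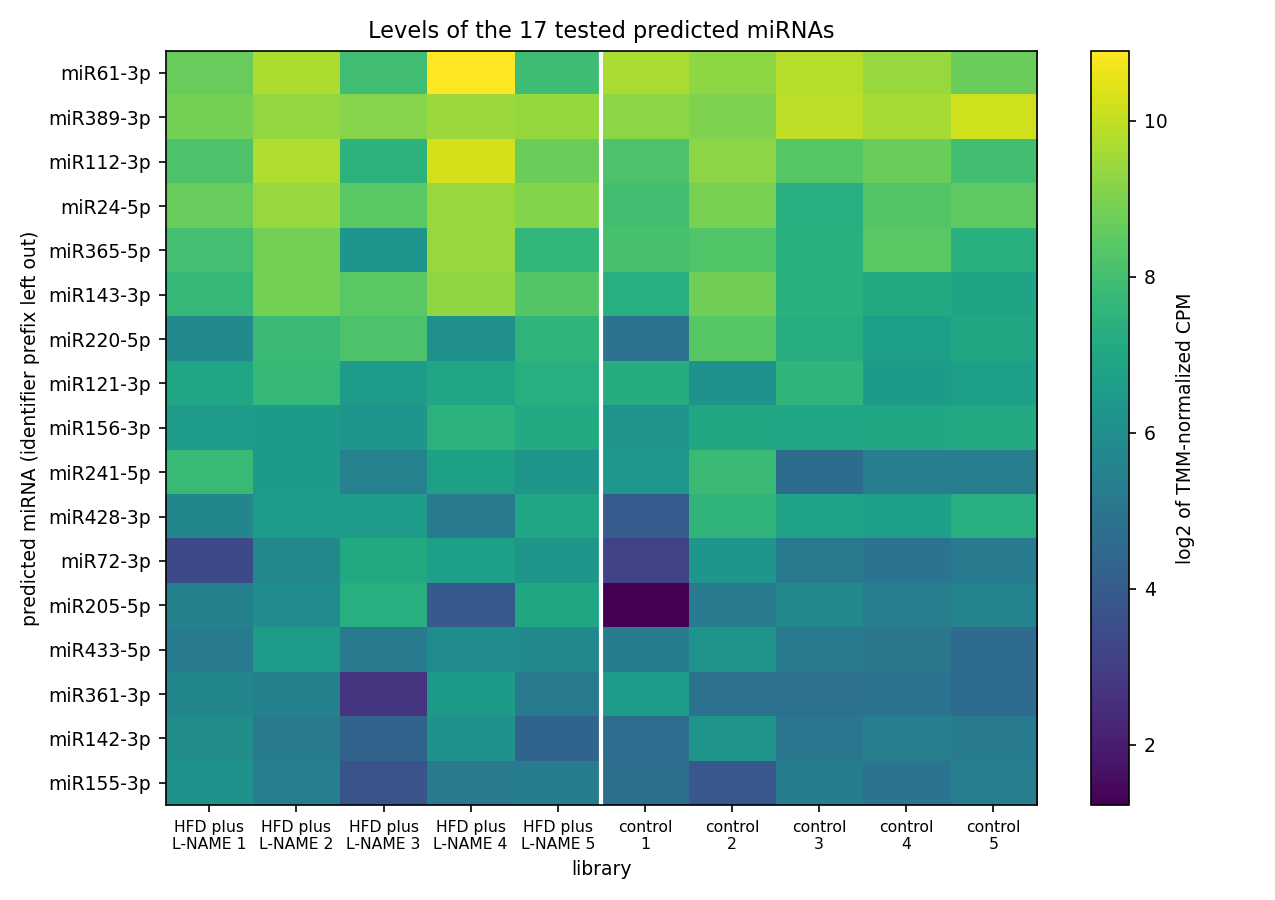
Level of the 17 tested predicted miRNAs as log2 of TMM-normalized CPM (colour), with rows ordered by summed count and 5 HFD plus L-NAME libraries left of the white line and 5 control libraries right of it. HFD plus L-NAME 4 is the brightest library in 6 rows, and miR205-5p is darkest in control 1 at 2.34 CPM.

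As a set, 14 of the 17 log2 differences were above 0, with a median of 0.35, while 86 of all 177 tested rows were above 0, with a median of -0.02. The direction depended on the scaling: with read totals recovered from the deposited scaled value as library size, 7 of the 17 were above 0, with a median of -0.07, while 37 of all 183 rows tested there were above 0, with a median of -0.37. That scaling moved the median of the 176 rows tested under both by -0.36, and the predicted rows lay 0.37 above the median of all tested rows with TMM and 0.30 above it with read totals. All 19 predicted rows tested with read totals lay 0.23 above it. With read totals the smallest adjusted p among predicted rows was 0.128, for miR389-3p at -0.69 ± 0.25, whose level was 6.16 to 10.5 RPM in HFD plus L-NAME libraries and 9.19 to 13.0 RPM in control libraries.

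A set of 10 rows was counted in all 10 libraries but lay below the filter, with sums of 42 to 105 counts. Their counts over the 5 HFD plus L-NAME libraries and the 5 control libraries were 37 and 68 for miR78-3p, 47 and 53 for miR474-3p, 26 and 62 for miR450-5p and 28 and 51 for miR100-5p. For miR186-5p they were 23 and 36, for miR279-3p 33 and 25, and for miR133-3p 17 and 36. For miR75-5p they were 13 and 36, for miR483-5p 23 and 24, and for miR249-5p 16 and 26. Scaled to the miRNA counts of each library, the mean CPM was higher in HFD plus L-NAME for miR279-3p, miR483-5p and miR474-3p and higher in control for the others, and the groups overlapped in all 10 rows. For miR450-5p it was 17.4 ± 12.4 CPM in HFD plus L-NAME and 38.8 ± 20.2 CPM in control, and for miR75-5p 8.71 ± 5.37 CPM in HFD plus L-NAME and 20.2 ± 9.37 CPM in control (SD, n = 5 each). These rows were not tested in the comparison above. The row miR208-3p, chosen after its values were seen, had 0, 2, 2, 4 and 0 counts in HFD plus L-NAME libraries and 8, 7, 3, 10 and 9 counts in control libraries. The groups overlapped between 3 and 4 counts, and it was not among the rows kept for the test.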

How the data were processed

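Small RNA libraries of heart sEVs were analysed from the table of mature miRNAs that the authors deposited, which gives a raw read count per row and library. The authors also scaled each count to read depth and deposited it beside the count, in columns whose header gives no unit. The values that the authors deposited there were taken as RPM, scaled by the authors to each library's reads, since dividing count by value gave 1 constant per library (spread at most 0.0431%), from which read totals of 21563706 to 27493797 followed. The submitters' processing notes name GRCm38.p6. Aligner, counter, prediction tool and handling of multiply matching reads were not given in the sources used here. Sequences and positions of the predicted rows were not used here, so rows that share reads cannot be recognised.

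Libraries were grouped by the treatment label, and replicates were numbered by accession and pair nothing. Counts of all rows were tested with edgeR 4.0.16 in R 4.3.3 (TMM scaling, filterByExpr at its defaults, robust quasi-likelihood F test, Benjamini-Hochberg adjustment, threshold 0.05), after a check on simulated data. A standard error is the log2 difference over the root of F. A prior count of 2 entered log2 CPM. Alternatives were DESeq2 1.42.0, limma 3.58.1, RLE size factors, no filter, the miRNA total without TMM, recovered read totals (chosen after seeing the data) and leaving out each library. Tables and figures used Python 3.11.15, pandas 2.3.3, NumPy 2.4.6, SciPy 1.17.1 and matplotlib 3.10.9.

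The rule for names took all tested predicted rows, the 10 largest, precursors with both arms, rows in all 10 libraries, each library's leading row, the 5 rows most concentrated in a library, and cell type markers. Members and lists were chosen with earlier results of these data known.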

Additional observations from a re-analysis of the deposited data

Results flagged for a closer look

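A library far from the others of its group was looked for in 42 sets of 5 libraries, covering the 17 tested predicted miRNAs and 4 library measures in both groups, and 3 were found. Chance alone gives about 1 in 20. The level of miR143-3p in control 2 was 441 CPM, where the other control libraries had 118 to 164 CPM. The level of miR361-3p in control 1 was 95.9 CPM, where the other control libraries had 24.4 to 30.4 CPM. The number of predicted rows detected in control 1 was 63.0, where the other control libraries had 56.0 to 57.0.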

How the results depend on the processing

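The count of predicted rows at an adjusted p of 0.05 was 0 with edgeR, RLE size factors, DESeq2, limma, no filter, the miRNA total without TMM and read totals, and 0 to 1 with a library left out, where the 1 was miR143-3p without control 2. Over all tested rows it was 3 of 177 with DESeq2, 1 of 733 with no filter and 0 with the others named. With a library left out it was 1 of 179 without control 1, 1 of 179 without control 2 and otherwise 0. The count at an unadjusted p under 0.05 was 6 without a filter (68 of all 733 rows), 1 with read totals (39 of all 183) and 1 to 5 with a library left out (17 to 34 of all), against 2. It was 1 without HFD plus L-NAME 2 or 5 or control 1 or 5, 4 without HFD plus L-NAME 3 and 5 without control 2. Of the 17 tested rows, 6 changed the sign of their log2 difference in an alternative other than read totals, and miR121-3p and miR433-5p did so with read totals alone. Read totals moved the median of all rows by -0.36. With them the differences were -0.16 for miR61-3p, -0.30 for miR220-5p, -0.14 for miR121-3p, -0.07 for miR241-5p, -0.01 for miR433-5p, -0.26 for miR361-3p and -0.27 for miR142-3p. With limma they were -0.33 for miR61-3p and -0.06 for miR142-3p, and without a filter 0.05 for miR156-3p. With a library left out the range was -0.60 to 0.35 for miR61-3p, -0.18 to 0.72 for miR220-5p, -0.17 to 0.13 for miR156-3p, -0.16 to 1.17 for miR241-5p, -0.27 to 0.71 for miR361-3p and -0.22 to 0.37 for miR142-3p. The cause of the changes other than those with read totals was not tested. A filter of 1 count in every library kept 27 predicted rows in place of 17. Rows detected per library were 30.4 in HFD plus L-NAME and 33.0 in control at 3 counts, 17.0 and 18.6 at 10 counts, and 52.3 in control at the smallest library total. The predicted share became 0.675% in HFD plus L-NAME and 0.520% in control without the most abundant named miRNA in the total, and 0.322% in control without the leading predicted row. Precursors with a single arm numbered 37 at 10 counts. Shared detection was 81.7% at 3 counts, and the correlation between libraries was 0.782 over tested rows and 0.871 by Pearson on CPM. No paired analysis was possible because the labels give the groups no shared replicate numbers. Counts limit most rows: 113 of the 130 were not tested in the filtered comparison.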
